A study of Zea mays with 6 samples.

Results

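The heat shock protein genes of maize were followed in shoot tips of seedlings that carried an extra copy of part of chromosome 5 and in their wild-type siblings. They were taken as all probe sets with a single gene symbol whose symbol or synonym was "hsp" followed by a number, which gave 12 of 17621 probe sets, from 9 of the 1108 genes named on the array. Of the 9 genes, 5 encode small heat shock proteins (6 probe sets), 1 encodes hsp101, 1 encodes the chaperonin HSP60-1 and 2 encode Hsp70 proteins (4 probe sets). The name hsp18 is a synonym of 2 of these genes. LOC542576, also called hsp26, is written hsp26 here, and LOC542293, also called HSP18, is written hsp18a.

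The DpDf (duplicate-deficient) plants derive from the translocation T5-6b. For the greater part of the chromosome 5 short arm they have 3 copies, and for the tip of the chromosome 6 short arm 1 copy, where wild-type siblings have 2 copies of both. Both groups came from the same selfed DpDf families in the B73 background, were grown in a greenhouse with no heat treatment named in the labels, and were sampled at 14 days. RNA of 3 DpDf pools and 3 wild-type pools, each of 8 plants, was hybridised to 1 Affymetrix maize array per pool, and pools that share a replicate number share a planting. The tissue was the shoot tip with leaf primordia. The meristem gene kn1 was above the background bound on every array, at 9.77 to 10.42, as was the photosynthesis gene Cab-m7, at 14.66, so the pools held RNA of green tissue besides meristem. In such pools fewer cells that express a gene and less RNA per cell cannot be told apart.

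Heat shock proteins are molecular chaperones, which bind proteins that are unfolded or not yet folded. Small heat shock proteins hold unfolding proteins in a soluble state, Hsp70 proteins refold them with ATP, HSP101 pulls aggregated proteins apart so that Hsp70 can refold them, and HSP60 chaperonins fold proteins inside a closed chamber. In plants, transcripts of small heat shock proteins and of HSP101 accumulate strongly on heat and at some developmental stages, while many Hsp70 and HSP60 genes are also expressed in unstressed growing tissue.

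Before the values, 2 arrays have to be set apart. Wild type replicate 3 had a narrower distribution of intensity than the others (10th percentile 104.2, against 69.58 to 73.71), and it moved the DpDf minus wild type difference of the whole array, whose median was 0.18 on the log2 scale with this array and 0.02 without it. DpDf replicate 1 had the highest 3' over 5' signal, a sign of RNA quality, which was 2.68 on the log2 scale over 5 control transcripts, against 1.46 and 1.39 in DpDf replicates 2 and 3 and 1.00 to 1.12 in wild type. In this measure no DpDf pool overlapped the wild-type pools (1.84 ± 0.73 in DpDf, 1.07 ± 0.06 in wild type, SD, n = 3 each). The exact permutation test, two-sided, gave p = 0.1, which is the lowest value 3 against 3 arrays allow. Results are therefore given with and without these arrays. All levels are log2(intensity + 1), in which 1 unit is a doubling of the signal.

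Transcripts of hsp26, hsp18a, hsp18f, hsp22 and hsp101 were higher in DpDf replicates 2 and 3 than in every wild-type pool and than in DpDf replicate 1, which lay within or below the wild-type range. The brighter probe set of hsp18c followed this in part, and its dimmer one did not. The gene hsp26, whose product is the small heat shock protein of the plastid, read 8.55, 10.07 and 10.43 in DpDf replicates 1 to 3, against 8.51, 8.33 and 9.05 in wild type replicates 1 to 3. DpDf replicates 2 and 3 thus lay over 1 unit above every wild-type pool, while DpDf replicate 1 lay among the wild-type pools. DpDf replicate 1 and wild type replicates 1 and 2 were near the background bound of 8.28 to 8.33. This bound is the 40th percentile of each array, and a signal close to it is only weakly measured. The mean of DpDf replicates 2 and 3 was 3.26-fold above the signal of DpDf replicate 1.

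The gene hsp18a, a small heat shock protein gene of chromosome 9, read 11.75, 12.31 and 12.75 in DpDf, against 11.71, 11.94 and 11.73 in wild type. Here too DpDf replicate 1 lay within the wild-type range and DpDf replicates 2 and 3 above all of it. The gene hsp18f, of the same protein family and on chromosome 3, read 11.35, 12.24 and 12.58 in DpDf, against 12.24, 11.84 and 11.42 in wild type. Its DpDf replicate 1 was the lowest of the 6 arrays, and its wild-type pools were spread widely as well. DpDf replicate 2 lay above wild type replicate 1 by less than the 2 decimals given here.

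The gene hsp18c, of the same family on chromosome 8, read 10.22, 10.48 and 11.04 in DpDf, against 10.53, 10.38 and 9.62 in wild type. The groups overlapped, and DpDf replicate 3 alone lay above every wild-type pool. A dimmer probe set of hsp18c read 7.52 to 7.55 in DpDf and 7.54 in wild type replicates 1 and 2, under the background bound, but 8.83 in wild type replicate 3. Its difference, DpDf minus wild type, was -0.43 in a fit with no filter (95% interval -1.29 to 0.42) and 0 without wild type replicate 3. It was the 1 of 12 probe sets that did not pass the filter on low values, which asked for at least 3 arrays at or above their own 40th percentile. The gene hsp22, which encodes the small heat shock protein of mitochondria, read 12.95, 13.24 and 13.53 in DpDf, against 13.11, 13.09 and 12.54 in wild type. DpDf replicates 2 and 3 were above, and DpDf replicate 1 below, wild type replicates 1 and 2, whose values differed by only 0.01.

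The disaggregase gene hsp101, which maize needs to acquire thermotolerance, read 12.11, 12.84 and 12.97 in DpDf, against 12.31, 12.41 and 12.27 in wild type. The 3 wild-type pools were close together, DpDf replicates 2 and 3 lay above all of them and DpDf replicate 1 below all of them. The gene is on chromosome 6, at the end opposite to the short arm tip that DpDf plants carry once.

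The Hsp70 probe sets hardly varied, at percentiles 97.5 to 99.8 of the probe sets on their arrays. Whether signals this bright are compressed, so that changes read too small, was not tested. The gene hsp70-4 read 13.49, 13.55 and 13.65 in DpDf, against 13.62, 13.59 and 13.32 in wild type. Of the 3 probe sets of hsp70-5, the one marked (a) in the plots read 14.29, 14.35 and 14.39 in DpDf, against 14.39, 14.37 and 14.29 in wild type. The other two stayed between 13.25 and 13.38 in DpDf, against 13.22 to 13.38 in wild type. The IDs of these probe sets mark them as able to bind transcripts of related genes, or several transcripts of 1 gene, so their signal may be shared with other Hsp70 genes.

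HSP60-1 (CPN60I), a mitochondrial chaperonin gene, is the member that lies in the first 40% of chromosome 5, the stretch taken here as its short arm, and so is expected in 3 copies in DpDf. It read 11.82, 12.20 and 12.16 in DpDf, against 12.01, 11.67 and 10.56 in wild type. DpDf replicates 2 and 3 were above all wild-type pools. Wild type replicate 3 was lower than the other wild-type pools by over 1 unit.

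**Figure D1:**
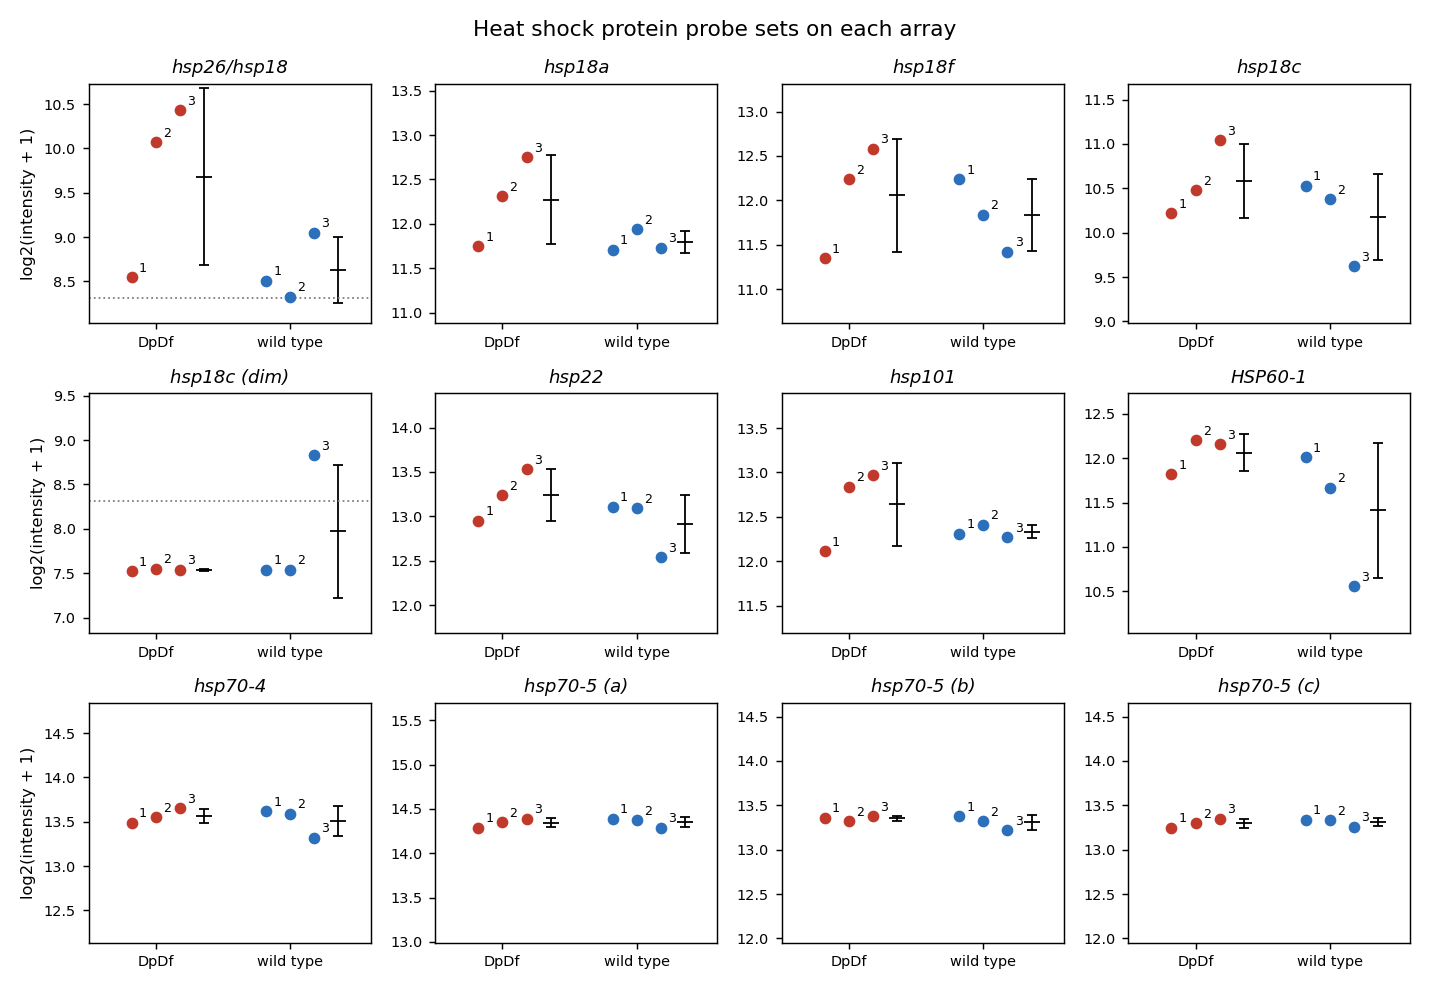
Levels of the 12 heat shock protein probe sets, in log2(intensity + 1), on the 3 DpDf arrays (left, red) and the 3 wild-type arrays (right, blue), with replicate numbers, and the mean and SD of each group (n = 3) in black; every panel spans the same height, and the dotted line is the mean background bound. In hsp26 (panel hsp26/hsp18) the DpDf arrays read 8.55, 10.07 and 10.43, whereas in hsp70-5 (a) they read 14.29 to 14.39.

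The spread among DpDf pools separated the members. Their SD (n = 3 pools) was 0.999 for hsp26, 0.638 for hsp18f, 0.5 for hsp18a, 0.466 for hsp101, 0.419 for hsp18c and 0.290 for hsp22. Among all 10661 probe sets that passed the filter the median SD among DpDf pools was 0.098, and 99.8% of them varied less than hsp26 and 95.4% less than hsp22. HSP60-1 had an SD of 0.204, above that of 88.9% of probe sets. The 4 Hsp70 probe sets lay at 0.0306 to 0.0823, below the median.

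Wild-type pools gave a different picture, since wild type replicate 3 widened the spread of most probe sets. The SD among the 3 wild-type pools had a median of 0.291 over all probe sets, and that of DpDf was the larger in 16% of them. DpDf had the larger SD in 5 of the 11 member probe sets, which were those of hsp26, hsp18f, hsp18a and hsp101 and probe set (c) of hsp70-5, the last by under 0.01. With wild type replicates 1 and 2 only, the SD was 0.124 for hsp26, 0.283 for hsp18f, 0.165 for hsp18a, 0.0662 for hsp101 and 0.00825 for hsp22. DpDf then had the larger SD in 9 of 11 members, against 68.7% of all probe sets, so this count is close to that of the array as a whole.

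DpDf replicate 1 was the low pool for nearly all of these genes. It was the lowest of the 3 DpDf pools in 10 of 11 probe sets, against 32% of all probe sets tested. Its difference from the mean of DpDf replicates 2 and 3 was -1.70 for hsp26, -1.07 for hsp18f, -0.80 for hsp101, -0.78 for hsp18a, -0.54 for hsp18c and -0.44 for hsp22. All 6 lay below -0.374, the 5th percentile of all probe sets. It was the lowest of all 6 arrays in 4 of 11 members, hsp18f, hsp101 and probe sets (a) and (c) of hsp70-5, against 10.2% of all probe sets. The 2 probe sets of hsp70-5 are of 1 gene and nearly tied with wild type replicate 3, at 14.29 on both arrays for (a) and at 13.25 against 13.26 for (c). A gap of at least 0.5 below the other DpDf pools was found in 5 of the 11 members, against 2.97% of all probe sets. HSP60-1 lay at -0.35, and 5.4% of probe sets lay lower. The Hsp70 probe sets lay between -0.12 and 0.01, and the median of all probe sets was 0.03. Quantile normalization and median centring of the arrays moved none of these member gaps by more than 0.05.

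Among the DpDf pools the 3' over 5' signal moved with this gap. DpDf replicate 1 was the highest array by that measure and the lowest DpDf pool in nearly all of these probe sets. In most of them, hsp26, hsp18a, hsp22 and HSP60-1 included, at least 1 wild-type pool lay lower than DpDf replicate 1. DpDf replicates 2 and 3 had a higher 3' over 5' signal than every wild-type pool. They also lay above every wild-type pool in hsp26, hsp18a, hsp101, hsp22, hsp18f and HSP60-1. Since every DpDf pool was above every wild-type pool in the 3' over 5' signal, RNA quality and genotype cannot be told apart here. The part of RNA quality in these values was not tested. The gap itself was not tested either and is given as a description.

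Among the tissue markers, 2 of the 3 meristem genes were the highest in DpDf replicate 1 and the lowest in DpDf replicate 3 of the DpDf pools. The meristem gene kn1 read 10.42, 10.19 and 9.77 in DpDf, against 9.96, 10.24 and 9.98 in wild type, and the related gene lg3 read 9.28, 9.04 and 8.15 in DpDf, against 8.73, 8.82 and 8.73 in wild type. DpDf replicate 1 thus lay above the mean of DpDf replicates 2 and 3 by 0.44 in kn1 and 0.68 in lg3, opposite to the small heat shock protein genes, while the third meristem marker, fea2, lay at -0.03. The log2 of the summed intensity of these 3 probe sets was 11.34, 11.18 and 10.78 in DpDf, against 10.95, 11.11 and 10.67 in wild type. For 10 probe sets of leaf primordium genes this sum was 13.14 to 13.2 in DpDf, against 12.64 to 13.19 in wild type, and for 20 of photosynthesis genes 17.22 to 17.25 in DpDf, against 16.96 to 17.17 in wild type. The median gap of DpDf replicate 1 was near 0 in the probe sets of both lists that passed the filter, at 0.06 for primordium and 0.09 for photosynthesis genes. The gap was above 0 in 5 of 7 and in 14 of 19 of them. A probe set of the photosynthesis gene lhcb6 lay at -0.75, as low as hsp18a, while other probe sets of lhcb6 lay at -0.30 to 0.05. The filter was passed by 7 of the 10 primordium and 19 of the 20 photosynthesis probe sets, and the sums hold the others as well. The root marker TIP2-3 read 7.43 to 7.99, under the background bound on every array. The part of tissue make-up in the heat shock values was not tested.

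**Figure D2:**
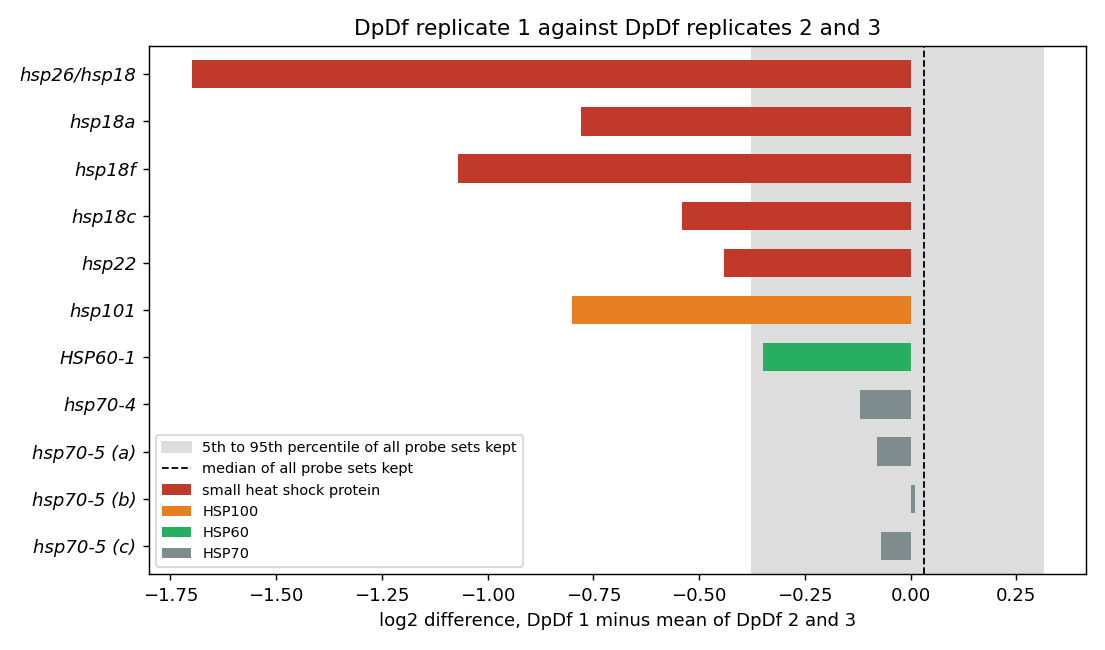
Log2 difference of DpDf replicate 1 from the mean of DpDf replicates 2 and 3 for the 11 heat shock protein probe sets that passed the filter, coloured by protein class; the grey band holds the 5th to 95th percentile (-0.374 to 0.313) of 10661 probe sets. The small heat shock protein and hsp101 bars end below the band, at -0.44 to -1.70, and the Hsp70 bars stay near 0.

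The genotypes overlapped in every member. All 3 DpDf pools lay above every wild-type pool in 0 of 11 members, against 23.2% of all probe sets, whereas DpDf replicates 2 and 3 lay above DpDf replicate 1 and above every wild-type pool in 6 of 11, against 9.3%. These 6 were hsp26, hsp18a, hsp18f, hsp22, hsp101 and HSP60-1. Wild type replicate 3 was the lowest wild-type pool in 9 of 11 members and in 82.6% of all probe sets. These counts describe patterns seen in the values and were not tested.

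No member passed the test of DpDf against wild type with all 6 arrays. The test was that of limma over all probe sets, with Benjamini-Hochberg adjustment and an adjusted p of 0.05 as the threshold, and it called 0 of 11 members and 3 of 10661 probe sets (0.0281%). At an unadjusted p under 0.05 it took 0 of the 11 and 9.76% of all probe sets. SEs and intervals are those of limma, in which each variance is drawn towards that of all probe sets. The largest member difference, that of hsp26, was 1.05 ± 0.48 (SE, 95% interval -0.07 to 2.18, adjusted p = 0.536), a 2.08-fold ratio. In this gene wild type replicates 1 and 2 were near the background bound. With the shared planting as a block the interval of hsp26 was 0.36 to 1.75 (unadjusted p = 0.00759, limma adjusted p = 0.331). The gene was then the 1 of 11 members with an unadjusted p under 0.05, against 10.8% of all probe sets. Its differences within plantings 1 to 3 were 0.04, 1.74 and 1.38, and the interval does not rest on their spread alone. Differences of the other small heat shock protein genes were 0.48 for hsp18a, 0.41 for hsp18c, 0.33 for hsp22 and 0.23 for hsp18f, and that of hsp101 was 0.31, with adjusted p-values of 0.562 to 0.737. The 95% interval of hsp101 ran from -0.24 to 0.86. Of the 11 members 9 lay above 0, but so did 79.6% of all probe sets, because wild type replicate 3 lowered the wild-type mean on most of the array. Set against the median of all probe sets, 7 of 11 were higher, against 50% of the array.

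For the Hsp70 genes the intervals were narrow. The difference was 0.05 for hsp70-4 (95% interval -0.27 to 0.37) and -0.01, 0.04 and -0.01 for probe sets (a), (b) and (c) of hsp70-5, whose intervals lay within -0.28 and 0.32. The signs of hsp70-4 and of probe set (b) turned to -0.01 and -0.02 with quantile normalization, and the intervals leave room for changes of either sign within these bounds.

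Without wild type replicate 3 the calls over the array rose to 355 (3.33%), and none of the 11 members was among them. The difference of hsp26 was then 1.27 ± 0.50 (SE, 95% interval 0.09 to 2.45, limma adjusted p = 0.221, unadjusted p = 0.039), and it was the only member with an unadjusted p under 0.05, against 20.3% of all probe sets. hsp18a lay at 0.45 and hsp101 at 0.28, little changed. The differences of hsp18f, hsp18c, hsp22 and HSP60-1 shrank to 0.02, 0.13, 0.14 and 0.22, so most of their 6-array difference came with wild type replicate 3. Of the 11 members 7 lay above 0, against 54.8% of all probe sets. The adjusted p-values of these 6 genes other than hsp26 were 0.371 to 0.976.

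Leaving out DpDf replicate 1 raised the differences to 1.62 for hsp26, 0.74 for hsp18a, 0.59 for hsp18c, 0.58 for hsp18f and hsp101 and 0.48 for hsp22, with all 11 members above 0, against 80.7% of all probe sets. At an unadjusted p under 0.05 were 3 of the 11, against 5.13% of all probe sets. No member passed (limma adjusted p from 0.791), and 2 probe sets of the array did (0.0188%). With DpDf replicate 1 and wild type replicate 3 both left out, 753 probe sets were called (7.06%), and 3 members among them. These were hsp26 (1.83 ± 0.13, SE, limma adjusted p = 0.0044), hsp101 (0.55 ± 0.08, adjusted p = 0.0126) and hsp18a (0.70 ± 0.15, adjusted p = 0.0411), all higher in DpDf. At an unadjusted p under 0.05 were 6 of the 11, against 23.8%. This fit holds 2 arrays a group, and its SEs draw on the variance of all probe sets. DpDf replicate 1 was known to be low in these genes when it was left out. In both fits without it, the larger differences and the smaller spread therefore follow in part from that choice. The counts above 0, the counts at an unadjusted p under 0.05 and the 3 calls are given as a description.

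**Figure D3:**
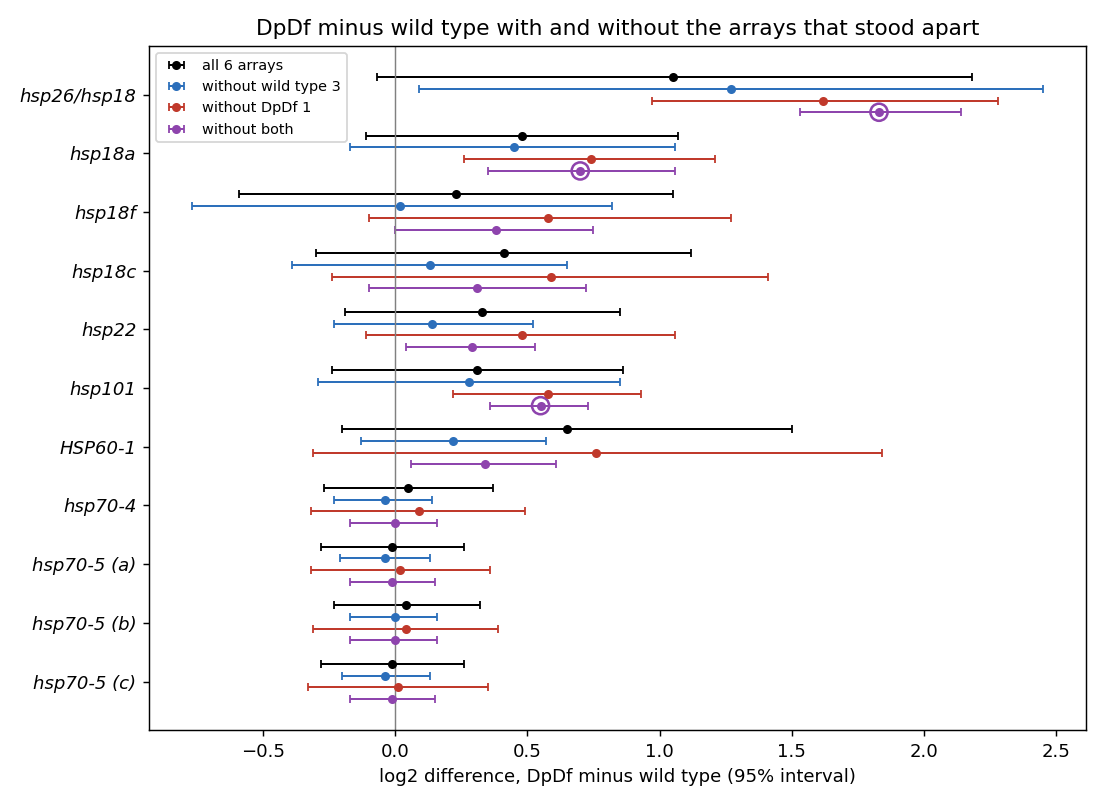
Log2 difference, DpDf minus wild type, with 95% intervals from limma for 11 heat shock protein probe sets, with all 6 arrays, without wild type replicate 3, without DpDf replicate 1 and without both; open rings mark an adjusted p under 0.05. Rings appear only without both arrays, at hsp26 (1.83), hsp18a (0.70) and hsp101 (0.55), and the Hsp70 probe sets stay near 0.

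Within plantings the direction was not the same. In planting 1 the DpDf pool minus the wild-type pool was 0.04 for hsp26, 0.04 for hsp18a, -0.21 for hsp101, -0.15 for hsp22, -0.31 for hsp18c and -0.89 for hsp18f. In planting 2 these differences were 1.74, 0.37, 0.44, 0.15, 0.10 and 0.41, and in planting 3, which holds wild type replicate 3, they were 1.38, 1.01, 0.70, 1.00, 1.42 and 1.16. The median over all probe sets was 0.04, 0.03 and 0.45 in plantings 1 to 3. In planting 2, which holds neither of the arrays set apart, these 6 genes were higher in DpDf, with hsp26 far above the rest. HSP60-1 lay at 0.53 there and the Hsp70 probe sets at -0.04 to -0.01. This sets 1 pool against 1 pool, and the share of all probe sets above 0 in planting 2 was not counted.

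**Figure D4:**
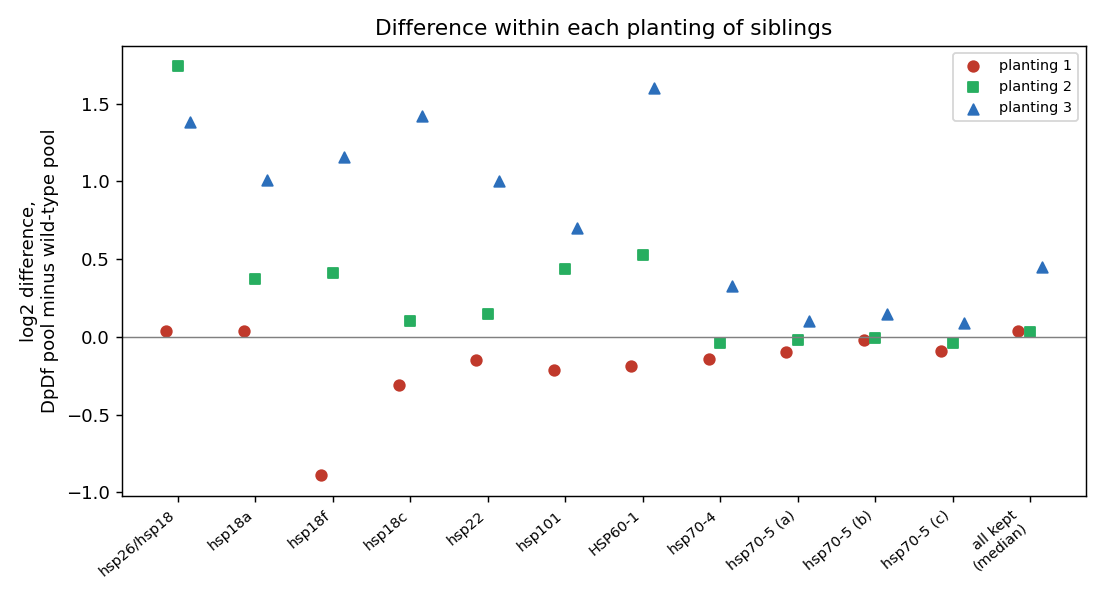
Log2 difference of the DpDf pool from the wild-type pool of the same planting (1, 2 or 3) for 11 heat shock protein probe sets, with the median of all probe sets kept at the right. Planting 1 lies at or below 0.04 for every member, whereas plantings 2 and 3 lie above 0 for the small heat shock protein genes, hsp101 and HSP60-1.

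HSP60-1, the member on the stretch taken as the chromosome 5 short arm, had a difference of 0.65 with all 6 arrays (SE 0.36, 95% interval -0.2 to 1.5, limma adjusted p = 0.562) and of 0.22 without wild type replicate 3 (95% interval -0.13 to 0.57, adjusted p = 0.427). The first interval held both 0 and 0.585, the log2 of 3 copies over 2, while the second held 0 and ended just below 0.585. Another mitochondrial chaperonin gene named on the array, CPN60II (LOC542707) of chromosome 1, lay at 0.08, or at -0.23 when wild type replicate 3 was left out. The log2 ratio of HSP60-1 to CPN60II was 1.67, 2.03 and 2.09 in DpDf, against 1.46, 1.5 and 1.14 in wild type. The DpDf mean was 0.57 above that of wild type, and 0.45 above it without wild type replicate 3. This ratio was chosen after both genes' values were seen, so it is given as a description. The exact permutation test gave p = 0.1, the lowest value 3 against 3 arrays allow, and is not used as support.

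Other chaperone and heat response genes were taken from a list of names, and 11 probe sets of 7 genes matched it, all of which passed the filter. None passed the test in either direction, whether or not wild type replicate 3 was included. The share of all probe sets called was 0.0281% in the first fit and 3.33% once that array was dropped. A count of 0 among 11 therefore says little. Differences of the listed probe sets were -0.46 to 0.35 with a median of 0.01, where the median of all probe sets was 0.18. Without wild type replicate 3 they were -0.47 to 0.21 with a median of -0.13, against 0.02 for all probe sets. The list median thus lay below that of the array in both fits, and this was not tested. The gene bip1, an Hsp70 of the endoplasmic reticulum that also lies in the first 40% of chromosome 5, was at 0.35 (limma adjusted p = 0.534) and at 0.21 without wild type replicate 3 (adjusted p = 0.198). Its paralogue bip2, on chromosome 4, was at 0.12 and -0.11. For emp2 (hsbp1), which encodes a protein that binds heat shock transcription factors and restrains them, the values were 0.12 and 0.04. The heat shock factor gene hsfb read 8.49, 8.44 and 8.5 in DpDf, against 8.30, 8.37 and 8.39 in wild type, close to the background bound, with a difference of 0.12. The calreticulin gene crt2 and the calnexin gene CNX, lectin chaperones of the endoplasmic reticulum, differed by -0.19 to 0.01 in 5 probe sets. The remaining probe set of CNX had the largest difference of the list, -0.46 (limma adjusted p = 0.356), and -0.47 without wild type replicate 3 (adjusted p = 0.0615). It read 7.69 to 7.96 in DpDf, under the background bound, against 8.31 to 8.36 in wild type, and so passed the filter through wild type alone.

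DpDf replicate 1 did not stand apart in these genes as it did in the small heat shock protein genes. Its gap to DpDf replicates 2 and 3 was -0.27 to 0.11 over the 11 probe sets, with a median of 0.02, against -0.44 to -1.70 in the 6 small heat shock protein and hsp101 probe sets. It was -0.01 for bip1, 0.02 for bip2, 0.09 for emp2 and 0.03 for CPN60II. Whether the lists differ in this gap was not tested.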

How the data were processed

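Total RNA of 6 pools was labelled and hybridised to 1 array each, per the labels' protocols. The authors deposited linear intensities of 17621 probe sets, besides 113 controls. GCOS 1.2 and GCRMA are named in the submitters' processing notes, without role or order. How background and scaling were handled is not given in the sources used here. Arrays have no read depth, and their number limits the precision.

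Intensities were turned into log2(intensity + 1), controls were left out, and probe sets had to reach the 40th percentile of an array on 3 or more of the 6 arrays, which left 10661 (60.5%). limma 3.58.1 in R 4.3.3 (lmFit, eBayes, 2 groups, no block) was fitted over all of them, with Benjamini-Hochberg adjustment. The fit was also run on simulated data with independent noise. Those data held no shift of a whole array, so the run does not show how the fit handles arrays such as wild type replicate 3. Alternatives were other offsets, filters and scalings, array weights, the replicate number as a block and arrays left out. Symbols came from the platform table, and synonyms from RefSeq (Zm-B73-REFERENCE-NAM-5.0), matched by gene ID for 7 member genes and by name for 2 (hsp70-4 and hsp70-5). That assembly served only for names and chromosomes. Every member is named. Members and lists were chosen with earlier results of these data known. Same-numbered pools came from 1 planting, per the labels, and their deviations from the group means correlated at 0.076, -0.164 and 0.195.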

Additional observations from a re-analysis of the deposited data

How the results depend on the processing

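The count of 3 probe sets called was 2 or 3 under other offsets, filters and scalings and in the fit with a replicate block (the shared planting), which called 3 probe sets and 0 heat shock members and changed no member's call at the adjusted threshold. Leaving out single arrays gave 2 to 355, the highest without wild type replicate 3, and leaving out DpDf replicate 1 with wild type replicate 3 gave 753. Array weights gave 2446, with 4 members called (hsp26, HSP60-1, hsp18a and hsp101), but their estimation stopped before it converged, and the weights ranged from 0.0387 for wild type replicate 3 to 17 for wild type replicate 2. Without both arrays 3 members were called, and in every other setting 0. The differences of hsp26, hsp18a, hsp22, hsp101, HSP60-1 and the brighter probe set of hsp18c kept their direction in all settings run in which they were tested. With no filter the dimmer probe set of hsp18c had the opposite sign (-0.43). With single arrays left out, hsp26 lay at 0.68 to 1.62, hsp18f at -0.03 (without DpDf replicate 3) to 0.58, hsp70-4 at -0.04 to 0.11, and probe sets (a), (b) and (c) of hsp70-5 at -0.04 to 0.02, 0 to 0.08 and -0.04 to 0.01. The sign of hsp70-5 (b) turned with quantile normalization (-0.02), median centring (-0.06), without wild type replicate 3 (0) and without both arrays (0), and that of hsp70-4 with quantile normalization (-0.01), median centring (-0.05), array weights (-0.01), without wild type replicate 3 (-0.04) and without both arrays (0). The stricter filter at the 60th percentile removed hsp26. The cause of these shifts was not tested.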

Other observations

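Named genes outside the family were ranked by the likeness of their profile to hsp18a, over 811 genes with 1 probe set each. Over 6 arrays the highest Pearson correlations were with INO1 (0.956), MYC2a (0.95), prp2 (0.932), der4 (0.909) and GOS2 (0.905), and over the 5 arrays without wild type replicate 3 with expB7 (0.988), prp2 (0.98), GAPA (0.971), expA4 (0.964) and ERF1 (0.961). For hsp26, added after its values were seen, they were PIP2-1 (0.977), dbf1 (0.963), bk2 (0.961), sbe1 (0.917) and SAG (0.904) over 6 arrays. These values rest on 5 or 6 points from 2 genotypes, all from the same arrays, and are given as a description only.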
